A study of Homo sapiens with 92 samples.

Results

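DPF3 and the genes of 9 other subunits of the human BAF chromatin remodelling complexes were followed in new RNA, by taking every row with their gene names from each deposited count table. Of these 10 genes, 9 had a row (DPF1, DPF2, DPF3, PHF10, SMARCA2, SMARCA4, ARID1A, ARID1B and SMARCC1), out of 48905 genes kept. SMARCC2 is not analysed here. The genes were selected on their converted reads over time and with dTAGV-1 against DMSO, so those differences are a description and not tests of these genes. Where a gene is named as called with dTAGV-1 or over time, an adjusted p under 0.05 in the edgeR fit across all genes is meant, which is printed beside the share of all genes called and from which nothing is read.

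BAF complexes, the mammalian relatives of yeast SWI/SNF, use the energy of ATP to slide or evict nucleosomes, and so open enhancers and promoters. Each complex holds 1 ATPase (SMARCA4 or SMARCA2) and a scaffold of SMARCC subunits. The canonical form adds an ARID subunit (ARID1A or ARID1B) and 1 of the double PHD finger proteins DPF1, DPF2 or DPF3. PHF10 takes the place of the double PHD finger protein in the PBAF form. Exchange of subunits goes with cell type: DPF3 is known from heart and skeletal muscle and, with DPF1, from neurons, and DPF2 is found in most cells. NIPBL, the protein removed here, loads cohesin on DNA and drives loop extrusion, which can bring distant enhancers to promoters.

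New RNA was measured by SLAM-seq, in which 4-thiouridine (4sU, 100 µM) enters RNA and is read as T-to-C conversions. A level is given in CPM, a gene's share of the converted reads of its library (CPM, counts per M, where M is 1e6 reads) after TMM scaling over all 92 libraries. RPE-1 libraries came from NIPBL-D7, 1 clone of hTERT RPE-1, an immortalised retinal pigment epithelial line with the genotype mGreenLantern-P2A-FKBP12(F36V)-NIPBL. All of these cells, DMSO arms included, carried the degron and went through a double thymidine block at 2 mM and nocodazole at 20 ng/ml, and dTAGV-1 sends the tagged protein to degradation. In the mitosis series dTAGV-1 or DMSO was present in the last 120 min of the block and for 0, 30, 60, 90 or 120 min or 4, 6 or 8 h after it, with 24 libraries in each arm labelled for 15 min. In the release series the labels give only a treatment time, 30, 60, 90 or 120 min of dTAGV-1 or DMSO, with 12 libraries in each arm. These cells are also labelled synchronized, and their time since shake-off is not stated separately. Each series also had 3 libraries per arm at 120 min with 4sU for 120 min. Cardiomyocytes and neurons made from WTC11 iNgn2 stem cells got dTAGV-1 or DMSO for 4 h and 4sU for 120 min, with 2 libraries per arm and cell type. For these libraries WTC11 comes from the sample titles and the culture description, whereas the cell line field says hTERT RPE-1 and the genotype field gives the degron.

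Libraries held 0.419 to 35.4 M converted reads of 10.7 to 114 M reads. Cardiomyocyte libraries with DMSO held all 6 cardiomyocyte markers above 1 CPM, with a summed level of 3474 to 3617 CPM, and neuron libraries all 6 neuron markers, with 1898 to 1989 CPM. The neuron libraries also held SLC1A3 (302 CPM), a glial and progenitor gene, and LIN28A (154 CPM), a gene of immature cells, and the cardiomyocyte libraries held both (258 and 101 CPM). Of 6 retinal pigment epithelium markers, 4 in the mitosis series and 5 in the release series of RPE-1 were above 1 CPM in DMSO with 120 min of 4sU, with a summed level of 364 to 490 CPM led by MITF. RPE65 was at or near 0 and BEST1 had means of at most 1.05 CPM. There the cardiomyocyte markers summed to at most 1.88 CPM and the neuron markers to 281 to 2184 CPM. The part of other cells in the values below was not tested. In bulk RNA, fewer cells of a type and less RNA per cell cannot be told apart. Nothing in the labels says that replicates came from separate cultures, so p-values measure the spread between libraries only. One library, mitosis series DMSO replicate 3 at 120 min, differed from its group, and values without it are given where it matters.

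DPF3 (ENSG00000205683) lies on the minus strand of chromosome 14 at chr14:72619296-72894116 in hg38, a span of 274.8 kb, shorter among these genes only than that of ARID1B (433.4 kb). Reads were counted per gene, so the 2 DPF3 start regions listed by RefSeq cannot be told apart in these values. The outer one, whose start lies closest to the end of the gene row in the files, is printed because DPF3 is the gene with the largest difference between arms. It is RefSeq sequence of GRCh38.p14 on the minus strand, chr14:72894052-72894351, running from 250 bases before the start to 50 after it, with the one match to GGGCGG (the GC box, either strand) in capitals.
DPF3: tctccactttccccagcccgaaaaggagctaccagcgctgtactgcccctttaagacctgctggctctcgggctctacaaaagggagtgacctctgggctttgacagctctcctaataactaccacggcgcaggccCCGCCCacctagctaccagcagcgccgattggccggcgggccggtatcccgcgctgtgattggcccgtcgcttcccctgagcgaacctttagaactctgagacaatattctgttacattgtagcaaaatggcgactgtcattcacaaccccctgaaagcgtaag
The window had 57.0% G and C and 18 CpG, against medians of 58.7% and 14.0 over 35116 promoter windows of the same length. GGGCGG was found in 45.0% of all windows, and CCAAT, which DPF3 held 2 times on either strand, in 34.6%. The letters TATAAA (the TATA box) were not in this window, while 11.5% of all windows held them. The same was true of TGANTCA, the AP-1 element, held by 7.7% of windows. It was true as well of GGAATG, the TEAD element, held by 14.0%.

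DPF3 was the gene of the group with the largest difference between arms in RPE-1 cells. Its converted reads were lower with dTAGV-1 from 120 min after mitosis on and through 8 h, lower in the release series at 120 min, and overlapping between the arms in cardiomyocytes. At 0 min DPF3 was at 42.2, 35.7, 27.8 and 33.0 CPM with dTAGV-1, against 48.7, 39.8 and 51.5 CPM with DMSO. The arms overlapped, at −0.50 ± 0.26 (log2 change, dTAGV-1 minus DMSO, ± SE of the edgeR fit). At 30 min it had 35.2, 34.1 and 29.6 CPM with dTAGV-1, against 37.8, 24.0 and 24.5 CPM with DMSO, again with overlap and a change of 0.19 ± 0.28.

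At 60 min the change of DPF3 was −0.34 ± 0.24, with a mean of 20.1 CPM with dTAGV-1 and 25.4 CPM with DMSO (n = 4 each). At 90 min DPF3 was at 15.5, 19.8, 29.3 and 22.7 CPM with dTAGV-1, against 31.5, 41.2, 44.1 and 26.4 CPM with DMSO. Only the highest dTAGV-1 library reached into the DMSO range, and the change was −0.73 ± 0.24. At 120 min it had 26.1, 29.9 and 38.2 CPM with dTAGV-1, against 42.9, 89.1, 39.6 and 87.4 CPM with DMSO. Every dTAGV-1 library lay below every DMSO library, and the change was −1.10 ± 0.25, while the DMSO libraries themselves fell into a low and a high pair. These levels rest on few reads: 60 to 85 converted reads of DPF3 per library with dTAGV-1 and 28 to 189 with DMSO.

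Averaged over 30 to 120 min, DPF3 was at 26.6 CPM with dTAGV-1 and 38.7 CPM with DMSO (n = 14 and 15). The change was −0.50 ± 0.13. It was 1 of 9 members called lower there, beside 0.746% of 14206 genes, and no member was called higher. The call was lost when any 1 of the 4 replicate numbers was left out, with changes from −0.58 to −0.35 over all settings tried. At 120 min alone 1 of 9 members was called lower, DPF3, beside 0.619% of genes, and at 0, 30, 60 and 90 min none was called by edgeR, beside 0%, 0%, 0% and 0.366% of genes in either direction. Without the adjustment 2 members had p under 0.05 at 90 min, beside 794 of 14206 genes.

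**Figure D1:**
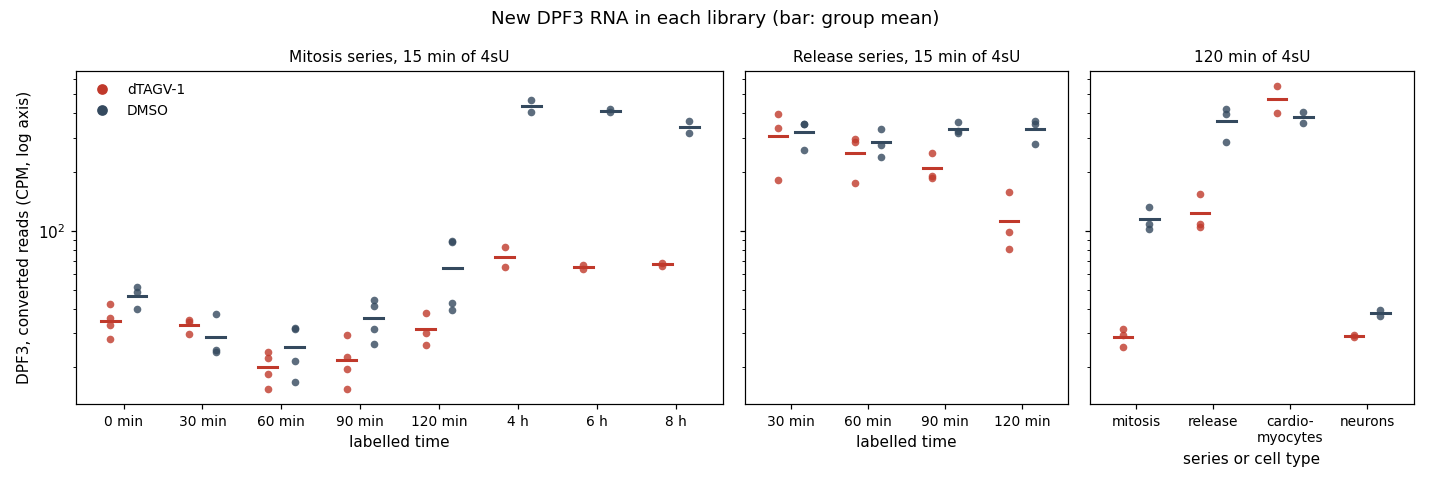
Converted reads of DPF3 in CPM on a log axis, 1 point per library with the group mean as a bar, dTAGV-1 in red left of DMSO in blue, by labelled time in the mitosis and release series and for the sets with 120 min of 4sU. At 4 to 8 h the dTAGV-1 libraries lie between 64.2 and 82.4 CPM and the DMSO libraries between 316 and 471 CPM, and in cardiomyocytes the arms overlap.

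The difference was largest at 4 to 8 h. At 4 h DPF3 was at 82.4 and 65.5 CPM with dTAGV-1, against 471 and 405 CPM with DMSO. At 6 h it had 67.2 and 64.2 CPM with dTAGV-1, against 407 and 419 CPM with DMSO, and at 8 h 66.2 and 68.6 CPM, against 367 and 316 CPM. No library of one arm came near the other arm, and the dTAGV-1 level stayed within 64.2 to 82.4 CPM over the 3 times. Marker lists moved with the drug in these libraries. The summed level of the 6 retinal pigment epithelium markers was 470 to 595 CPM with dTAGV-1 and 363 to 467 CPM with DMSO over 4 to 8 h, with RPE65 at 0 in DMSO at 4 h. The 5 fibroblast and smooth muscle markers summed to 152 to 161 CPM with dTAGV-1 and 87.7 to 101 CPM with DMSO at 4 h, with ACTA2 the highest of them in DMSO, and were higher with dTAGV-1 at 6 and 8 h too, without overlap. The 6 neuron markers, in DMSO nearly all SYT1 and MAP2, summed to 1206 to 1293 CPM with dTAGV-1 and 1530 to 2162 CPM with DMSO at 4 h, and overlapped at 6 and 8 h. Their part in the values of DPF3 was not tested.

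The changes of DPF3 were −2.55 ± 0.14 at 4 h, −2.64 ± 0.14 at 6 h and −2.31 ± 0.13 at 8 h, and −2.50 ± 0.08 on average. In all reads, converted or not, the average change was −2.62. It was the single member called at each of these times, where 3.5%, 4.72% and 4.62% of 14570 genes were called lower at 4, 6 and 8 h. Averaged over 4 to 8 h, 3 of 9 members were called lower (DPF3, ARID1A and SMARCC1) and none higher, beside 10.7% of genes called lower.

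In the release series DPF3 started from a high level. At 30 min it was at 339, 399 and 182 CPM with dTAGV-1, against 259, 352 and 352 CPM with DMSO, with overlap and a change of −0.00 ± 0.18. At 60 min the change was −0.21 ± 0.18, with 175, 284 and 297 CPM with dTAGV-1, against 277, 334 and 240 CPM with DMSO. At 90 min DPF3 had 187, 190 and 251 CPM with dTAGV-1, against 318, 360 and 326 CPM with DMSO.

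From 90 min on, the arms of DPF3 in the release series did not overlap, with a change of −0.73 ± 0.18 at 90 min that did not pass the adjusted threshold. At 120 min it was at 81.2, 98.6 and 158 CPM with dTAGV-1, against 280, 354 and 364 CPM with DMSO, a change of −1.55 ± 0.18. On average over the 4 times the change was −0.62 ± 0.09, and 1 of 8 members tested was called lower, DPF3, beside 1.81% of 13927 genes. At 120 min that share was 1.21%. At 30, 60 and 90 min no member was called by edgeR, beside 0%, 0.0933% and 0.632% of genes in either direction. At 90 min 2 members were under an unadjusted p of 0.05, beside 779 of 13927 genes. The call on the average was lost with library sizes from all reads. DPF1 did not pass the filter on low counts in this series, so it was not tested. At 90 min it was at 1.77 to 2.03 CPM with dTAGV-1, against 0.853 to 1.22 CPM with DMSO. At 120 min it was at 1.995 to 2.82 CPM with dTAGV-1, against 0 to 0.746 CPM with DMSO. These levels are near the floor, and the arms overlapped at 30 and 60 min.

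With 4sU for the full 120 min the arms of DPF3 were again apart. In the mitosis series it had 29.4, 31.5 and 25.4 CPM with dTAGV-1, against 133, 109 and 102 CPM with DMSO, a change of −2.04 ± 0.18. In the release series it had 105, 109 and 155 CPM with dTAGV-1, against 284, 395 and 421 CPM with DMSO, a change of −1.54 ± 0.18. In both series every dTAGV-1 library lay below every DMSO library, and in all reads the changes were −1.50 and −1.41. DPF3 was the single member of 9 called lower in each, beside 2.05% of 16571 genes in the mitosis series and 0.646% in the release series, where the call was lost without replicate 2.

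The share of DPF3 reads that carried a conversion was high in RPE-1 cells. After 120 min of 4sU it was 43.6% ± 6.82 with dTAGV-1 and 65.7% ± 5.95 with DMSO in the mitosis series (SD, n = 3 each). In the release series it was 57.4% ± 5.31 with dTAGV-1 and 64.5% ± 4.08 with DMSO. With DMSO this was the highest share of the 9 genes in both series, ahead of ARID1A (41.6%) in the mitosis series and ARID1B (58.5%) in the release series, and SMARCA4 had the lowest (9.96% and 17.8%). In neurons the share for DPF3 was 22.8% ± 1.10 with dTAGV-1 and 26.4% ± 0.717 with DMSO, and in cardiomyocytes 38.6% ± 0.642 and 41.3% ± 0.981 (n = 2 each).

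**Figure D2:**
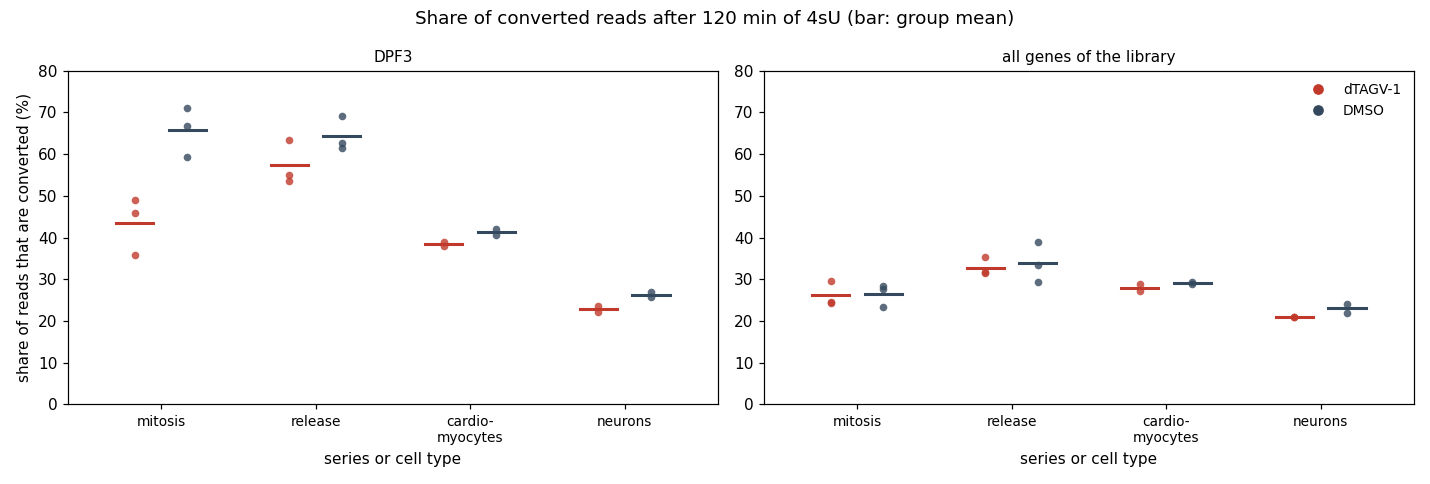
Share of reads with a conversion (%) after 120 min of 4sU, for DPF3 on the left and for all genes of the library on the right, 1 point per library with the group mean as a bar, dTAGV-1 in red left of DMSO in blue. In RPE-1 cells with DMSO the share for DPF3 is 65.7% in the mitosis series and 64.5% in the release series, above the whole library, whose highest share is 38.9%.

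The level of DPF3 in DMSO spanned 16 groups of libraries. Neurons, cardiomyocytes and the 120 min sets named as such had 4sU for 120 min, and all other groups for 15 min. Between these labels 48% of 14631 genes were called in RPE-1 cells, so places across label lengths are not like for like. The lowest means were those of the mitosis series at 60 min (25.4 CPM), 30 min (28.8), 90 min (35.8), of neurons (38.0) and of the mitosis series at 0 min (46.7) and 120 min (64.7). The set with 120 min of 4sU in the mitosis series followed with 115 CPM. The release series lay between 284 CPM at 60 min and 367 CPM with 120 min of 4sU, and the mitosis series at 8 h at 341 CPM. Cardiomyocytes (381 CPM) and the mitosis series at 6 h (413 CPM) and 4 h (438 CPM) were the highest. Ranges of neighbours in this order overlapped in 11 of 15 pairs. They did not between neurons and 0 min, on either side of the mitosis set with 120 min of 4sU, and between cardiomyocytes and 6 h.

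The series were also set against each other in DMSO, a comparison chosen after seeing the data. At the same labelled 30 min DPF3 was at 321 CPM in the release series and 28.8 CPM in the mitosis series (n = 3 each), and over 30 to 120 min at 318 and 38.7 CPM, with no overlap of libraries. Over 30 to 120 min 34.1% of 13466 genes were called higher and 35.8% lower in the release series, and 3 of 9 members were higher and 3 lower. Genes of dividing cells were lower in the release series at 30 min, with the mitotic kinase CDK1 at 5.77 CPM in the release series and 263 CPM in the mitosis series, TOP2A at 54.6 and 981 CPM, CCNB1 at 36.4 and 178 CPM and UBE2C at 2.86 and 41.5 CPM. At 4 h of the mitosis series CDK1 was at 15.5 CPM with DMSO, beside the high level of DPF3 there. CDK1 was as low without a high level of DPF3 at 120 min of that series, at 12.3 CPM with DMSO, where DPF3 was at 64.7 CPM. At 90 min they were at 20.6 and 35.8 CPM. The part of cell cycle stage in the level of DPF3 was not tested.

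Levels of different genes were compared per kb of gene span. On that scale DPF3 had the lowest level of all 9 genes in DMSO 30 min after mitosis, at 0.105 CPM per kb. The highest there was ARID1A, at 2.44 CPM per kb. At 4 h DPF3 stood at 1.59 CPM per kb, below ARID1A alone, at 2.08. Whether introns were counted is not given in the sources used here, so these levels rest on the full span.

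In cardiomyocytes and neurons no member was called with dTAGV-1 by the edgeR test, beside 4.83% and 2.24% of 18645 genes called in either direction. Without the adjustment 3 members had p under 0.05 in cardiomyocytes and 1 in neurons, beside 3087 and 2185 of 18645 genes. DESeq2's test called no member. In cardiomyocytes DPF3 was at 400 and 553 CPM with dTAGV-1, against 405 and 358 CPM with DMSO. The arms overlapped, with a change of 0.35 ± 0.12. In neurons it was at 29.4 and 28.7 CPM with dTAGV-1, against 39.4 and 36.6 CPM with DMSO. Both dTAGV-1 libraries of neurons lay below both DMSO libraries, with a change of −0.36 ± 0.16 that did not pass. Without replicate 1 of dTAGV-1 in cardiomyocytes, which left 1 library in that arm, the changes there were 0.55 for DPF3 and 1.05 for DPF1. Markers of other cells moved with the drug as well. In cardiomyocytes the summed level of 5 fibroblast and smooth muscle markers was 237 to 240 CPM with dTAGV-1 and 379 to 420 CPM with DMSO, and in neurons that of the cardiomyocyte markers was 23.9 to 30.4 CPM with dTAGV-1 and 54.9 to 57.5 CPM with DMSO. Their part in the values of DPF3 was not tested.

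The double PHD finger paralogs of DPF3, which read acetylated histone tails, did not pass the test with dTAGV-1 in any comparison with all libraries that tested them. DPF1 was not tested over 30 to 120 min of the release series. The ubiquitous DPF2 (chr11:65333754-65353249) had changes from −0.01 ± 0.10 over 30 to 120 min of the mitosis series to 0.23 ± 0.11 over the same times of the release series. At 90 min of the release series DPF2 was at 22.9, 30.6 and 25.5 CPM with dTAGV-1, against 16.9, 20.5 and 16.4 CPM with DMSO. All dTAGV-1 libraries lay above all DMSO libraries there, at 0.50 ± 0.21, short of the threshold. DPF1 (chr19:38211006-38229714) was scarce, with means of 1.39 to 6.50 CPM with DMSO at 4 to 8 h and with 120 min of 4sU in RPE-1 cells. Its largest change in the 7 main comparisons was 0.74 ± 0.27 in cardiomyocytes, with 4.85 and 8.03 CPM with dTAGV-1, against 3.56 and 4.31 CPM with DMSO. PHF10 (chr6:169703905-169725566), the PHD finger subunit of PBAF, had changes in these comparisons from −0.07 ± 0.09 in neurons to 0.28 ± 0.32 in the mitosis series with 120 min of 4sU.

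**Figure D3:**
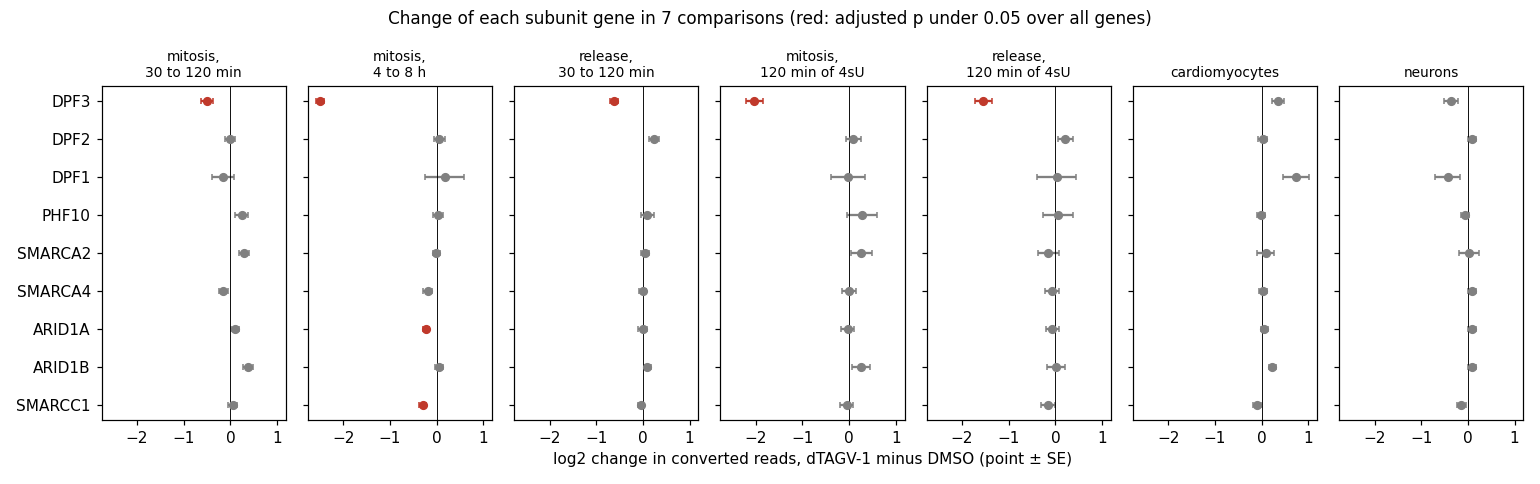
Log2 change in converted reads of 9 BAF subunit genes, dTAGV-1 minus DMSO, as point ± SE in 7 comparisons, with changes that passed an adjusted p of 0.05 over all genes in red and all others in grey. DPF3 stands at −2.50 at 4 to 8 h and at −2.04 and −1.54 with 120 min of 4sU, while most other points lie near 0.

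Of the ATPases, the motors of the complex, neither was called with dTAGV-1 with all libraries. SMARCA4 (chr19:10961001-11065395) had −0.20 ± 0.09 at 4 to 8 h, with 133 CPM with dTAGV-1 and 154 CPM with DMSO, and −0.15 ± 0.09 over 30 to 120 min of the mitosis series. It was among the called genes at 4 to 8 h in 1 of 19 settings, without dTAGV-1 replicate 2 of 8 h, at −0.27. SMARCA2 (chr9:1980290-2193624) had 0.29 ± 0.10 over 30 to 120 min of the mitosis series, with 166 CPM with dTAGV-1 and 133 CPM with DMSO. At 4 to 8 h it was at −0.01 ± 0.08.

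The ARID subunits set the canonical BAF form apart. ARID1A (chr1:26693236-26782104) was at −0.23 ± 0.07 at 4 to 8 h, with means of 184 CPM with dTAGV-1 and 218 CPM with DMSO (n = 6 each). Its arms overlapped over these times together, but not at any single time of 4, 6 or 8 h. At 6 h it had 157 and 191 CPM with dTAGV-1, against 227 and 237 CPM with DMSO. Its place among the called genes was lost with library sizes from all reads and when any of 7 single libraries was left out: dTAGV-1 replicate 1 or 2 at 4 h, replicate 1 at 6 h or replicate 2 at 8 h, or DMSO replicate 2 at 6 h or either DMSO replicate at 8 h. ARID1B (chr6:156777374-157210779) was at 0.38 ± 0.11 over 30 to 120 min of the mitosis series. At 120 min it was at 429, 543 and 442 CPM with dTAGV-1, against 284, 370, 96.0 and 349 CPM with DMSO. Every dTAGV-1 library of ARID1B lay above every DMSO library at 90 and at 120 min, and without the DMSO library at 96.0 CPM, the one that stood apart, ARID1B was called over 30 to 120 min at 0.32, and 2 members were called in all. With the replicate number as a block it was also called, at 0.38.

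The scaffold gene SMARCC1 (chr3:47585272-47782106) was at −0.30 ± 0.07 at 4 to 8 h, with means of 226 CPM with dTAGV-1 and 281 CPM with DMSO (n = 6 each). At 8 h it was at 237 and 209 CPM with dTAGV-1, against 287 and 269 CPM with DMSO. As with ARID1A, the arms of SMARCC1 did not overlap at any single time of 4, 6 or 8 h, but did over these times together. Its place among the called genes was lost in all reads and with library sizes from all reads.

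Over time in DMSO, 3 members were lower at 120 min than at 0 min of the mitosis series, beside 13.1% of 14206 genes, again as a description. ARID1A was at 108, 95.2, 41.0 and 102 CPM at 120 min, against 259, 169 and 239 CPM at 0 min, a change of −1.34 ± 0.18. SMARCC1 had a mean of 213 CPM at 120 min and 384 CPM at 0 min (−0.85 ± 0.19), and SMARCA4 112 CPM and 175 CPM (−0.66 ± 0.18). In these 3 genes all libraries of 120 min lay below all of 0 min. Leaving out 1 replicate number, or only DMSO replicate 3 of 120 min, gave −1.43 to −1.22 for ARID1A. It gave −1.045 to −0.77 for SMARCC1 and −0.80 to −0.60 for SMARCA4. DPF3 stood at 0.50 ± 0.25 at 120 min and was not called, with 0.27 to 0.69 when the same libraries were left out. At 60 min it was 1 of 3 members called lower than at 0 min, at −0.89 ± 0.26, beside 13.9% of genes. At 90 min 2 members were lower and 1 higher than at 0 min, beside 9.98% and 14.3% of genes. The higher one was SMARCA2, at 199, 185, 196 and 188 CPM at 90 min, against 117, 78.8 and 92.0 CPM at 0 min (0.99 ± 0.21), with no overlap. These comparisons share the 0 min libraries.

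Cell types were compared in DMSO with the edgeR test, on differences that were not among those used to select the genes. Earlier results of these data were known, however, when the genes were chosen. DPF3 separated neurons from cardiomyocytes more than any other member, with 39.4 and 36.6 CPM in neurons, against 405 and 358 CPM in cardiomyocytes. Both neuron libraries were far below, at −3.35 ± 0.14 (adjusted p = 5.23e-09). SMARCA2 fell as well, with 36.6 and 31.2 CPM in neurons, against 94.2 and 64.4 CPM in cardiomyocytes (−1.24 ± 0.20, adjusted p = 0.000233).

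The others that passed were higher in neurons than in cardiomyocytes. DPF1 was at 7.48 and 9.30 CPM in neurons, against 3.56 and 4.31 CPM in cardiomyocytes, a difference of 1.07 ± 0.27 (adjusted p = 0.005) that did not pass without DMSO replicate 2 of neurons (0.91, adjusted p = 0.0522). SMARCC1 was at 360 and 340 CPM in neurons, against 257 and 260 CPM in cardiomyocytes (0.42 ± 0.09, adjusted p = 0.00233). SMARCA4 was at 134.5 and 135 CPM in neurons, against 107 and 115 CPM in cardiomyocytes (0.26 ± 0.09, adjusted p = 0.0258), and its call was lost with DESeq2's test (0.081), without DMSO replicate 1 of cardiomyocytes (0.166), and without DMSO replicate 1 (0.114) or 2 (0.112) of neurons. With library sizes from all reads, which moved the median of all genes to −0.27, the differences of SMARCA4 and SMARCC1 were 0.00 and 0.15 and did not pass. In all, 2 of 9 members were lower and 3 higher, beside 26.8% and 26.9% of 18645 genes. DPF2, PHF10, ARID1A and ARID1B did not pass, with differences from −0.00 ± 0.09 for DPF2 to 0.16 ± 0.09 for PHF10. Per kb of span DPF3 was at 0.138 CPM in neurons, the lowest of the 9 genes there, and at 1.39 CPM in cardiomyocytes.

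**Figure D4:**
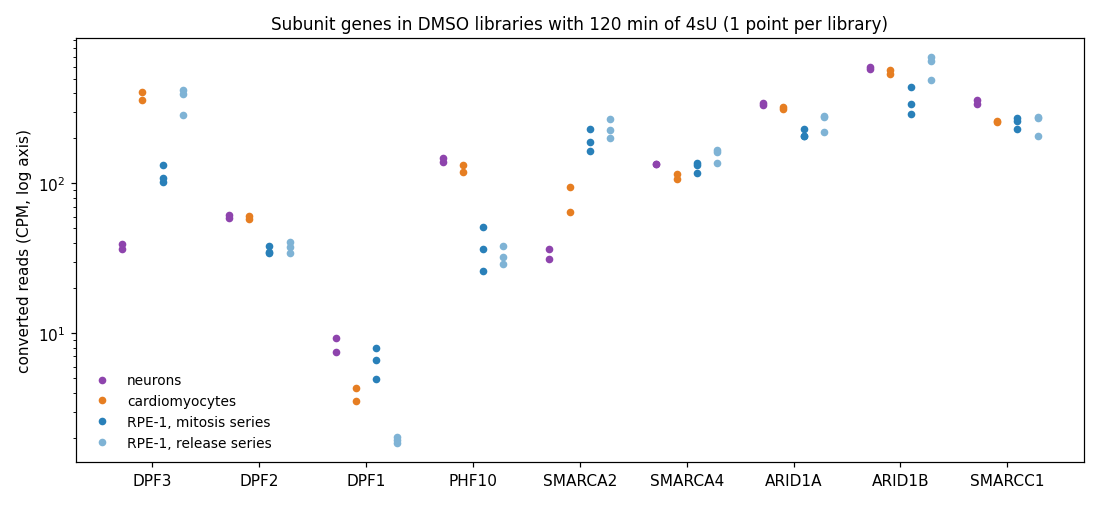
Converted reads in CPM on a log axis for 9 BAF subunit genes in DMSO libraries with 120 min of 4sU, 1 point per library, for neurons, cardiomyocytes and the mitosis and release series of RPE-1. DPF3 lies at 36.6 to 39.4 CPM in neurons, 358 to 405 CPM in cardiomyocytes, and in RPE-1 at 102 to 133 CPM in the mitosis series and 284 to 421 CPM in the release series.

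Against RPE-1 (6 DMSO libraries of both series with 120 min of 4sU), cell type and the experiment it came from cannot be told apart. For DPF3 these 6 join unlike groups, with means of 115 CPM in the mitosis series and 367 CPM in the release series, and the 381 CPM of cardiomyocytes lay near the release series. In cardiomyocytes 4 members were higher and 2 lower by the edgeR test, beside 37.6% and 30.7% of 20617 genes. PHF10 was higher by 1.71 ± 0.19 (126 CPM in cardiomyocytes and 35.5 CPM in RPE-1, adjusted p = 5.35e-07), DPF3 by 0.78 ± 0.15 (adjusted p = 0.000266) with overlapping libraries, DPF2 by 0.58 ± 0.13 and ARID1A by 0.31 ± 0.13 (adjusted p = 0.0402). SMARCA2 was lower, at −1.54 ± 0.17 (79.3 CPM in cardiomyocytes and 213 CPM in RPE-1, adjusted p = 2.71e-06), and so was SMARCA4, at −0.46 ± 0.12. The call of ARID1A was lost without either cardiomyocyte library, without DMSO replicate 2 of the mitosis series and without the filter on low counts (adjusted p = 0.112). That of SMARCA4 was lost without replicate 1 of cardiomyocytes (adjusted p = 0.141) and, at −0.09, with library sizes from all reads (adjusted p = 0.669).

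In neurons 5 members were higher than in RPE-1 and 2 lower, beside 39.4% and 33.2% of genes. SMARCA2 was lower by the most, at −2.77 ± 0.18 (33.9 CPM in neurons and 213 CPM in RPE-1, adjusted p = 9.38e-09), followed by DPF3 at −2.56 ± 0.16 (38.0 CPM in neurons and 241 CPM in RPE-1, adjusted p = 8.63e-09). PHF10 was higher by 1.89 ± 0.19, DPF1 by 1.11 ± 0.25, DPF2 by 0.58 ± 0.13, ARID1A by 0.39 ± 0.13 and SMARCC1 by 0.34 ± 0.13, the last with adjusted p = 0.032 by edgeR. The call of SMARCC1 was lost without either neuron library, and that of ARID1A without replicate 2 of neurons (adjusted p = 0.0608). Without the filter on low counts both were lost (adjusted p = 0.126 for SMARCC1 and 0.0559 for ARID1A), and in all reads SMARCC1 turned to −0.030.

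A longer label also moved some members. With 120 min of 4sU against 15 min, in DMSO at 120 min of both series (6 against 7 libraries), DPF1, DPF2 and ARID1A took a larger share of converted reads, beside 24.7% of 14631 genes called higher. The changes were 1.57 ± 0.45 for DPF1 (adjusted p = 0.00346), 0.63 ± 0.13 for DPF2 (0.000799) and 0.67 ± 0.16 for ARID1A (0.00211), by the edgeR test. DPF3 stood at 0.27 ± 0.17 and did not pass, but passed without the filter on low counts, at 0.48 (adjusted p = 0.0171).

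The other subunits of BAF, PBAF and ncBAF were a list of 21 genes, of which 18 or 19 were tested. With dTAGV-1, 2 of 19 passed at 4 to 8 h and none in the other 6 main comparisons by edgeR. In those 6, 11 had an unadjusted p under 0.05 in all. Beside this stood 1486 of 14206 and 1353 of 13927 genes over 30 to 120 min of the mitosis and release series. With 120 min of 4sU it was 2198 and 882 of 16571 genes, and in cardiomyocytes and neurons 3087 and 2185 of 18645. Over all 7 comparisons DESeq2's test called 4 of the other subunits. The share of all genes called by that test, or with the replicate block, is not given here. With the replicate number as a block 5 were called, the further 3 calls being BCL11A, named here after its values were seen, at 0.54 and 0.39 over 30 to 120 min of the mitosis and release series and 0.77 with 120 min of 4sU in the mitosis series. The further 2 of DESeq2's test, also named after their values were seen, were ACTB in cardiomyocytes at −0.48 and BCL11B in neurons at −0.94. They were called there in 6 and 8 settings, and BCL11A in 2, 2 and 3 settings of the comparisons above. BCL11A was also called lower in neurons in 4 settings, and BCL11B higher in cardiomyocytes in 2. The share of all genes called at 4 to 8 h was 10.7% lower and 9.07% higher, and the median change was −0.01 in the list, against 0.01 over all genes. BCL7A, a subunit of the ATPase module, fell by 1.15 ± 0.17 on the log2 scale, with a mean of 6.35 CPM with dTAGV-1 and 13.4 CPM with DMSO (n = 6 each, adjusted p = 7.43e-05). It was also called at 4, 6 and 8 h alone and in all 19 settings. ARID2, the ARID subunit of PBAF, rose by 0.30 ± 0.09 (adjusted p = 0.0302), a call that held in 8 of 19 settings.

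Between neurons and cardiomyocytes in DMSO, 3 of the 19 other subunits were lower and 6 higher, beside 26.8% and 26.9% of 18645 genes. The median difference was 0.14 in the list, against 0.01 over all genes. ACTB, the actin of the ATPase module and of the cytoskeleton, was lower at −1.74 ± 0.12 (221 CPM in neurons and 729 CPM in cardiomyocytes, adjusted p = 3.87e-07). SMARCD3, a core subunit known from heart, was lower at −1.16 ± 0.13 (22.1 CPM in neurons and 48.5 CPM in cardiomyocytes, adjusted p = 1.7e-05). BCL7A was higher at 1.32 ± 0.10 (65.7 CPM in neurons and 25.9 CPM in cardiomyocytes, adjusted p = 8.6e-07).

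The exchange of ACTL6A for ACTL6B and of SS18 for SS18L1 marks mature neurons in the mouse. ACTL6B had 9 and 3 converted reads in the neuron libraries with DMSO and 0 in both cardiomyocyte libraries with DMSO, too few to be tested. ACTL6A was higher in neurons, at 0.51 ± 0.10 (52.2 CPM in neurons and 36.1 CPM in cardiomyocytes, adjusted p = 0.00121). SS18 (−0.03 ± 0.08) and SS18L1 (0.12 ± 0.10) did not pass.

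Among 10219 genes with enough converted reads in RPE-1 cells, the 5 whose 14 differences between arms were most like those of DPF3 by Pearson's r were MYO10 (0.977), SAMD3 (0.962), NTM (0.962), SVIL (0.957) and MYLK (0.956). The 14 differences come from 1 clone and share library scaling, so r is a description. MYO10 encodes an unconventional myosin of filopodia, NTM a neural adhesion protein, SVIL an actin-binding membrane protein and MYLK the myosin light chain kinase. At 4 to 8 h their changes were −1.47 ± 0.07 for MYO10, −2.38 ± 0.22 for SAMD3, −2.33 ± 0.08 for NTM, −1.14 ± 0.07 for SVIL and −1.54 ± 0.06 for MYLK. In cardiomyocytes MYLK alone of these 5 was called, at −1.32 ± 0.26 (16.1 CPM with dTAGV-1 and 40.8 CPM with DMSO, adjusted p = 0.0143 by edgeR), and in neurons none was. Of all 18645 genes tested, 4.83% in cardiomyocytes and 2.24% in neurons were called in either direction.

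Of 15 genes that start within 500 kb of the start of DPF3, 5 were tested at 4 to 8 h. DCAF4, a substrate receptor of a ubiquitin ligase that starts 32.2 kb away, was lower at −0.74 ± 0.13, with a mean of 20.2 CPM with dTAGV-1 and 34.1 CPM with DMSO (edgeR, adjusted p = 0.000389). ZFYVE1, 133 kb away, was higher at 0.44 ± 0.10 (adjusted p = 0.00456). RBM25 and RP4-647C14.3 did not pass. Of all 14570 genes tested there, 10.7% were called lower and 9.07% higher. Transcripts of NIPBL itself, whose protein and not RNA the degron acts on, were at 385 CPM with dTAGV-1 and 303 CPM with DMSO at 4 to 8 h (0.36 ± 0.07, adjusted p = 0.00205 by edgeR).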

How the data were processed

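Per the labels, total RNA was labelled with 4sU, alkylated and sequenced after ribosomal RNA removal. Per the submitters' processing notes, HISAT, Picard and HTSeq were used with hg38, in versions and an order not given in the sources used here. The deposited files give raw counts per gene and library, of reads with a T-to-C conversion and of all reads. They also hold, per the file headers, a conversion rate as a fraction, which was not used for tests. The authors normalised no value across libraries. Files list a gene only with at least 1 read, so absent genes were set to 0. Gene starts have 1 added to the deposited value. Of 49186 genes, 281 on the Y chromosome or around X inactivation were left out.

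Converted counts were tested with edgeR 4.0.16 (R 4.3.3, limma 3.58.1), quasi-likelihood, two-sided, TMM scaling, filterByExpr (min.count 10, min.total.count 15), and Benjamini-Hochberg adjustment over all genes, with a threshold of 0.05. SEs are those of the fitted log2 changes. Fits held the mitosis series at 0 to 120 min, the same series at 4 to 8 h, the release series, both sets with 120 min of 4sU, both WTC11 cell types, or the groups compared. On simulated counts for 4 to 8 h (14570 genes), 96% of log2 changes of 1 and 100% of those of 2 were recovered. The changed genes were drawn from those with a mean above 5 CPM and had the same change at all 3 times. Spread followed the trend over genes and not each gene's own. Recovery of smaller changes, or of scarcer genes such as DPF1, was not simulated. CPM values used TMM over all 92 libraries. Figures were drawn with matplotlib 3.10.9. The members and lists were chosen with earlier results of these data known. Genes named are all members, at most 3 called other subunits a comparison, ACTL6A, ACTL6B, SS18 and SS18L1 in neurons, the 5 genes most like DPF3 among those with a mean log2 CPM of at least 3, tested neighbours within 500 kb (1 is not reported here), and NIPBL. Besides the cell type markers, 4 mitotic genes were chosen after seeing the data. Replicate numbers paired libraries, judged from the data and not the labels (every correlation of deviations over 0.1 with 3 or more pairs), at 0, 90 and 120 min and with 120 min of 4sU in the mitosis series and at 120 min in the release series. Alternatives were DESeq2 1.42.0 size factors or test, no filter, the replicate block, all reads, library sizes from all reads, each series or cell type alone, and leaving out replicates or libraries.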

Additional observations from a re-analysis of the deposited data

Results flagged for a closer look

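Among the 54 pairs of a member and a group of 4 libraries, 3 had 1 library far from the others by Dixon's criterion, which chance flags in about 1 of 20 groups. DPF2 was at 24.4 CPM in replicate 1 of DMSO at 90 min of the mitosis series, where the others lay at 15.4 to 16.2 CPM. With dTAGV-1 at the same time DPF2 was at 22 CPM in replicate 3, against 17.9 to 18.5 CPM in the others. PHF10 was at 61.8 CPM in that same library, replicate 3 of dTAGV-1 at 90 min, against 47.6 to 49.9 CPM in the others. The causes were not tested.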

How the results depend on the processing

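Of 296 alternative values of the main results, 255 stayed close to the main value, and of 89 for the change of DPF3 with dTAGV-1 84 did. Close meant within 1.5 times a main count, or for DPF3 within the pooled SD of its log2 CPM inside groups. This rule did not ask whether a call of DPF3 was kept. With the main setting included, DPF3 was called in 6 of 12 settings over 30 to 120 min of the mitosis series. It was called in 9 of 10 on the release average, 10 of 11 with 120 min of 4sU in the release series and 2 of 16 in cardiomyocytes. Depth limits the mitosis series at 30 to 120 min, where DPF3 had 28 to 189 converted reads in DMSO at 120 min. The cause of each shift below was not tested unless given. For most settings the share of all genes called is not given, so nothing about the members is read from the counts below. With library sizes from all reads, 111 of 14253 genes were called over 30 to 120 min of the mitosis series, against 177 of 14206 with the main settings. At 4 to 8 h it was 2051 of 14670 against 2882 of 14570, and on the release average 64 of 13682 against 317 of 13927.

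Members called over 30 to 120 min of the mitosis series (1) numbered 2 with DESeq2's test, 2 without the filter, 2 with the replicate block, 0 in all reads, 0 with library sizes from all reads, 0 without any 1 of the replicate numbers, and 2 without DMSO replicate 3 of 120 min. At 4 to 8 h (3) they numbered 1 with library sizes from all reads, on the release average (1) 0, and with 120 min of 4sU in the release series (1) 0 to 1 without 1 replicate. In cardiomyocytes (0) they numbered 1 without the filter and 0 to 2 without 1 library. Over single times (5) they numbered 8 with DESeq2's test, 8 without the filter, 3 with library sizes from all reads and 4 to 6 without 1 replicate. Other subunits called with dTAGV-1 (2) numbered 4 with DESeq2's test, 8 without the filter, 5 with the replicate block, 4 in all reads, 4 with library sizes from all reads and 1 to 7 without 1 library. The replicate block changed no other call of a member in these averaged or paired-group comparisons, and over single times it gave 7. In neurons against cardiomyocytes (5) members called numbered 3 with library sizes from all reads and 3 to 5 without 1 library. Against RPE-1 they numbered 4 to 6 without 1 library in cardiomyocytes (6) and 5 to 8 in neurons (7), and at DMSO 120 min against 0 min (3) 2 to 4. For the longer label (3) library sizes from all reads gave 9, which follows from its construction, as a longer label converts more reads. The change of DPF3 was −1.50 in all reads for the mitosis series with 120 min of 4sU, and in neurons −0.30 in all reads, −0.48 with library sizes from all reads and −0.42 to −0.30 without 1 library.

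Some differences turned sign, all of which had not passed with the main settings except that of SMARCC1 in neurons against RPE-1. In neurons against cardiomyocytes DPF2 gave 0.072 with the replicate block, 0.10 in all reads and −0.037 to 0.028 without 1 library, ARID1B −0.032 in all reads, and ARID1B −0.19, PHF10 −0.10 and ARID1A −0.18 with library sizes from all reads. In cardiomyocytes against RPE-1 SMARCC1 gave 0.28 with library sizes from all reads and −0.14 to 0.0009 without 1 library, and DPF1 −0.10 to 0.24 without 1 library. In neurons against RPE-1 SMARCC1 gave −0.030 in all reads. For the longer label PHF10 gave 0.0072 with DESeq2's size factors, 0.0084 with its test, 0.21 without the filter and 2.61 with library sizes from all reads. ARID1B gave 0 with DESeq2's test, 0.19 without the filter, 0.11 with the replicate block and 2.60 with library sizes from all reads, and SMARCC1 0.075 and 2.46 in the filter and scaling settings. Without 1 replicate the ranges were −0.082 to 0.13 for PHF10, −0.035 to 0.15 for SMARCA4 and −0.11 to 0.081 for ARID1B.

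Library sizes from all reads moved the median of all genes to −0.27 in neurons against cardiomyocytes, −0.12 in neurons, 0.12 on the release average, 0.46 and 0.18 in cardiomyocytes and neurons against RPE-1, 0.43 at DMSO 120 min against 0 min and 2.69 for the longer label. The share of lower among called genes with that scaling, against the main scaling, was 47.7% against 59.9% at 30 to 120 min and 64.4% against 54.2% at 4 to 8 h of the mitosis series, 68.8% against 79.5% on the release average and 89.4% against 74.3% in neurons. It was 68.4% against 49.9% in neurons against cardiomyocytes, 30.4% against 44.9% in cardiomyocytes against RPE-1, 17.8% against 47.2% at DMSO 120 min against 0 min and 0.209% against 48.6% for the longer label.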
